A study of Mus musculus with 50 samples.

Results

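Osteoblast and osteocyte genes were followed in amputated mouse digit tips. They are 10 genes taken by name, Runx2, Sp7, Alpl, Ibsp, Spp1, Bglap, Dmp1, Phex, Mepe and Sost, of the 21954 genes in the deposited tables, and all 10 were found. The distal phalanx (P3) of hindlimb digit 3 was amputated in male C57Bl/6 mice of 9 to 10 weeks, and RNA of the collected digit, a mixture of tissues around the wound, was sequenced after poly A selection. The design asks how the response differs with the amount of bone removed. Of 50 samples in the series, 41 are digits and 9 are cultures of bone marrow-derived macrophages. The macrophages came from female mice of the same strain, younger than those with amputated digits. They were kept in basal medium (M0) or treated in it with IFN-γ and LPS (M1) or with IL-4 (M2).

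The non-regenerative (NR) group holds 29 digits with labelled amputation levels of 60% to 80%, the share of P3 removed. Of these digits, 11 have levels of 60% to 65%. Such levels fall in the range given for intermediate digits in the methods, and the label NR was kept here. Collection was at 0, 3, 6, 12 and 24 hours and at 3, 7, 14 and 21 days, with 5 digits at 7 days and 3 at each other time. The intermediate group, labelled Medium, holds 12 digits with levels of 41% to 55%, in sets of 3 collected at 0 and 24 hours and at 14 and 21 days. All digits come from the same strain with no transgene or drug, and 0 hours means collection at the time of amputation. Regenerative digits were not analysed here.

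Osteoblasts are the cells that lay down bone matrix, and osteocytes are osteoblasts that have become embedded in it. RUNX2 and SP7 are the transcription factors that commit cells to the osteoblast lineage, alkaline phosphatase (Alpl) frees phosphate for mineral, and bone sialoprotein (Ibsp), osteopontin (Spp1) and osteocalcin (Bglap) are matrix proteins. Dmp1, Phex and Mepe act in mineralisation and phosphate balance and mark mature osteoblasts and osteocytes, and Sost encodes sclerostin, an osteocyte inhibitor of Wnt signalling.

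The total expected count per digit ran from 1468749 to 13011782, with a median of 6835347. Levels are given as CPM (counts scaled to the size of the library, with TMM factors over the 41 digits), and normalized TPM is used where genes are compared with each other. A gene was called when its adjusted p was under 0.05 with a fold over 2 in edgeR's quasi-likelihood test. Calls from alternative fits of a comparison are given without the share of all genes called in that fit. The labels separate an earlier date period (24 digits) from a later period (17 digits). All NR digits of 3 and 12 hours and all intermediate digits of 21 days belong to the earlier period, and all NR digits of 21 days to the later period. Some libraries stood apart. The second NR digit of 14 days (level 77%) was low in most of the 10 genes, the second NR digit of 6 hours (level 74%) had 0 Ibsp counts, and the third NR digit of 3 hours had the lowest total. In 5 pairs of digits from different groups or times, both carry the same animal mark, date and side in their labels, so their independence cannot be told from the labels. The pairs that fall within a 2-group comparison are the first intermediate and the third NR digit of 14 days, and the first NR digit of 0 hours and the third of 12 hours. In bulk tissue, fewer cells of a type and less RNA per cell cannot be told apart.

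Ibsp, Mepe, Dmp1 and Spp1 lie together on chromosome 5 of GRCm38, and the other 6 genes lie on chromosomes 3 (Bglap), 4 (Alpl), 11 (Sost), 15 (Sp7), 17 (Runx2) and X (Phex). Runx2 overlaps Supt3 and 3 antisense RNA genes on the other strand, and whether the counting used strand is not given in the sources used here. RefSeq promoter entries (GRCm38.p6) matched 9 of the 10 genes in 12 windows of 250 bases before a start, and Sp7 has no entry in the table used. The letters of a RUNX site, TGTGGT or ACCACA on the other strand, were present in 5 of the 12 windows, in those of Bglap, Dmp1, Mepe, Spp1 and Runx2. Of all 32851 promoter windows of this length, 14.05% held them. The homeodomain letters TAATTA, which read the same on both strands, were in 4.84% of all windows, and among these genes in a window of Mepe and in the second window of Spp1. A match is a description of the letters and not of binding. Below are the 3 windows with the RUNX letters that lie wholly outside the annotated span of their gene. The windows of Dmp1 and Runx2 with these letters reach into that span and are not shown. Windows are written 5′ to 3′ on the gene's strand with the RUNX letters in capitals. They lie at chr3:88384467-88384716 (minus strand) for Bglap, chr5:104434861-104435110 (plus strand) for Spp1 and chr5:104325079-104325328 (plus strand) for Mepe.
Bglap: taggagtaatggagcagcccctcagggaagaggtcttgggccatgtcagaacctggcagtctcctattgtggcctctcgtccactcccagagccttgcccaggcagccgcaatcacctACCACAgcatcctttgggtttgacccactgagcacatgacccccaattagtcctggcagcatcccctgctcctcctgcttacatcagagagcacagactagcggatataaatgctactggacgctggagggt
Spp1: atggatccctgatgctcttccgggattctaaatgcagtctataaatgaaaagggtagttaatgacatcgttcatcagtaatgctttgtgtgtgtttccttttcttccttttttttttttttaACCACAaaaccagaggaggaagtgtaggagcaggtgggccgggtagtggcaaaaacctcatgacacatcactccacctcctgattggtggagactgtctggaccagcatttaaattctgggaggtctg
Mepe: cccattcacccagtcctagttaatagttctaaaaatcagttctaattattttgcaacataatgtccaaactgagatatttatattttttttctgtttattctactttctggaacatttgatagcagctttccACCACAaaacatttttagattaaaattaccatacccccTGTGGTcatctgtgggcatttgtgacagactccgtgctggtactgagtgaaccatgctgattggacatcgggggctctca
The first capital base stood 132 bases before the start in Bglap, 128 in Spp1, and 118 and 80 in Mepe, whose window held the letters 2 times.

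Per length, over all 41 digits, Spp1 was the most abundant of the 10 genes with a median normalized TPM of 174, followed by Ibsp at 61.2, Bglap at 14.2 and Alpl at 10.8. Medians were lower for Dmp1 (5.215), Runx2 (3.16), Phex (2.33), Mepe (2.09), Sp7 (1.10) and Sost (0.67). The range over digits of each gene overlapped that of its neighbours in this order. The span within a gene was wide. Ibsp ran from 0 to 1401 normalized TPM and Bglap from 0 to 387.5. Sost had 3 counts or fewer in 19 of 41 digits, Mepe in 14, and Sp7 and Bglap in 11 each. A digit listed at 0 could hold up to 3 counts, or 2.04 CPM in the shallowest digit, for counting error only.

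**Figure D1:**
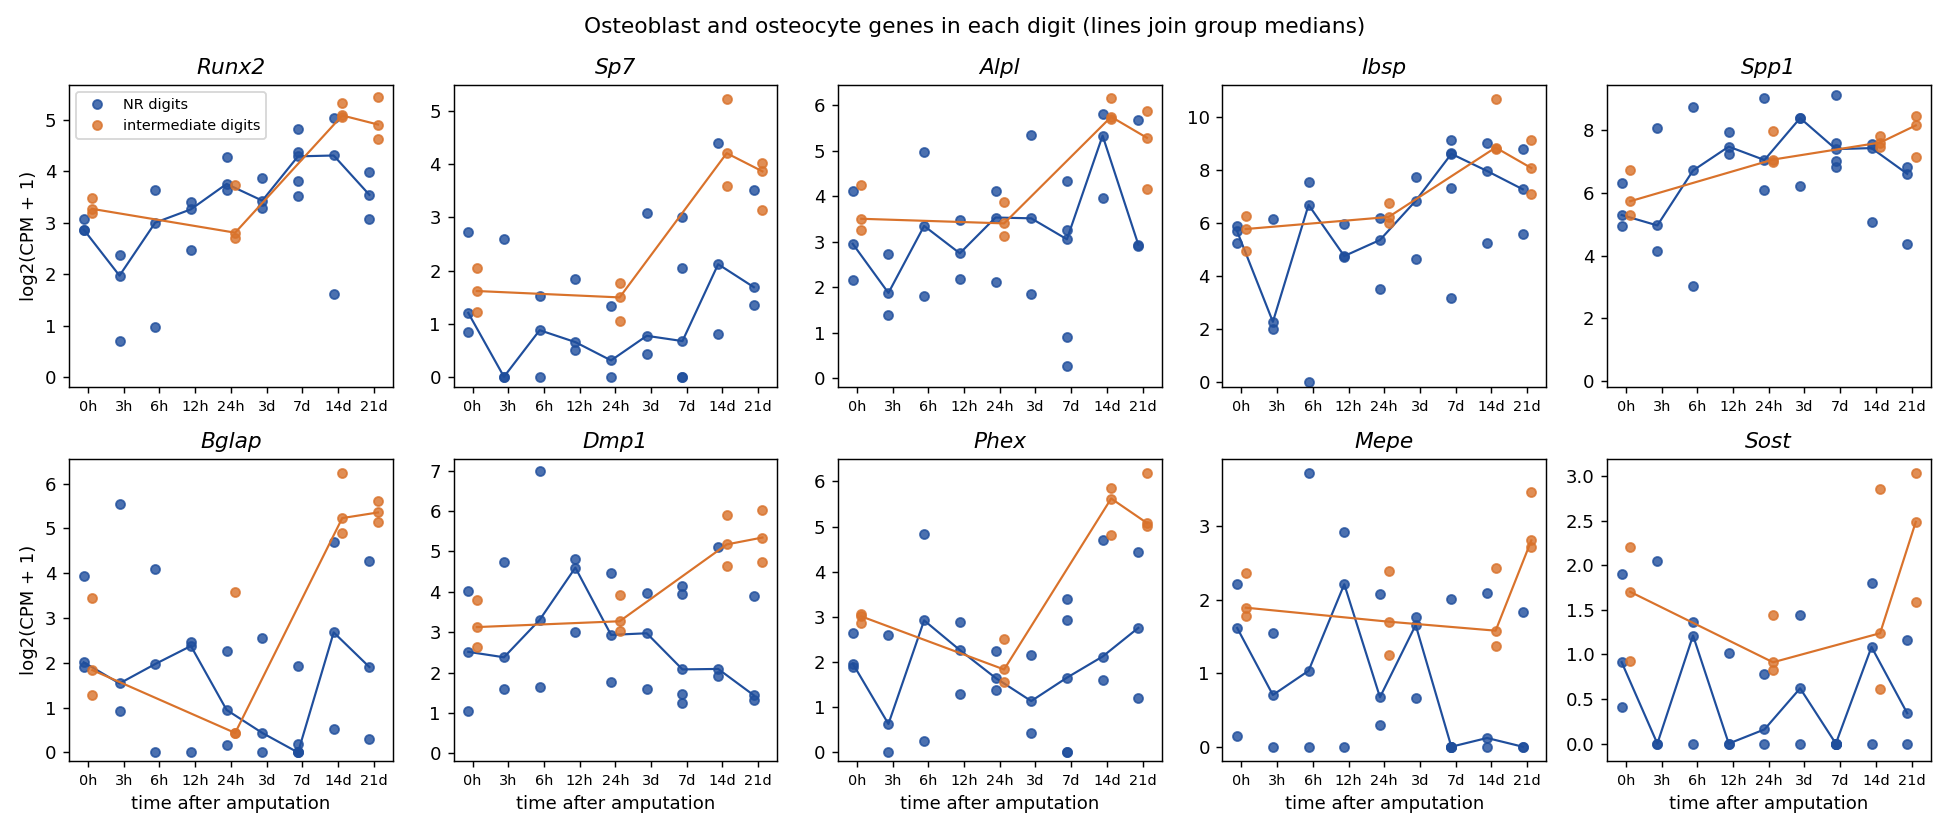
Level of each gene in every digit as log2(CPM + 1) on the y axis against time after amputation on the x axis, with NR digits in blue, intermediate digits in orange and lines through group medians. At 14 and 21 days the intermediate digits sat above those of 0 hours for 7 genes at both times, while NR digits of the same times spread from low to high.

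In intermediate digits, most of the 10 genes were higher at 14 days than at 0 hours. The lineage factors, the phosphatase, Ibsp, Bglap and the osteocyte-associated genes Dmp1 and Phex rose. All 10 genes passed the filter on low counts and 7 of 10 were called higher, beside 1.49% of all 13334 genes tested. Values of the 3 later digits lay wholly above those of the 3 digits of 0 hours for 8 of the 10 genes, beside 10.3% of all genes. The median log2 fold change of the 10 genes was 2.23, beside -0.01 over all genes.

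Among the regulators, Runx2 measured 8.17, 10.2 and 8.63 CPM in the 3 intermediate digits of 0 hours and 32.9, 32.0 and 39.2 CPM at 14 days. The groups did not overlap, and the log2 fold change was 1.93 ± 0.20 (SE, adjusted p = 0.00494). Sp7, which acts downstream of Runx2, measured 3.14, 2.06 and 1.31 CPM at 0 hours and 36.5, 10.98 and 17.5 CPM at 14 days. Its log2 fold change was 3.25 ± 0.52 (SE, adjusted p = 0.0199). All 3 later digits of Sp7 were above all earlier ones, and the first digit was the highest.

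Alpl, the tissue-nonspecific alkaline phosphatase, measured 10.4, 8.63 and 18.0 CPM at 0 hours and 70.3, 52.8 and 51.1 CPM at 14 days, a log2 fold change of 2.24 ± 0.29 (SE, adjusted p = 0.00946). The groups were apart. Ibsp, which nucleates hydroxyapatite, went from 53.6, 30.1 and 75.8 CPM to 1631, 445 and 459 CPM, the largest change of the 10 genes in this comparison, with a log2 fold change of 3.98 ± 0.60 (SE, adjusted p = 0.0152). The first digit of 14 days, a member of one of the pairs with shared labels, was far above the other two. Without it the log2 fold change of Ibsp was 3.07 ± 0.32 (SE, adjusted p = 0.00191). Spp1, an acidic matrix protein also made by macrophages, measured 38.1, 52.2 and 105 CPM at 0 hours and 193, 177 and 222 CPM at 14 days. Its groups did not overlap, but it missed the call (log2 fold change 1.59 ± 0.34 SE, adjusted p = 0.0601).

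Bglap measured 1.41, 2.58 and 9.94 CPM at 0 hours and 28.8, 74.5 and 36.5 CPM at 14 days, with a log2 fold change of 3.42 ± 0.68 (SE, adjusted p = 0.0468), and the groups were apart. Dmp1, a matrix phosphoprotein of osteocytes, measured 5.18, 7.73 and 12.9 CPM and then 58.3, 35.0 and 24.1 CPM, a log2 fold change of 2.21 ± 0.42 (SE, adjusted p = 0.0383). Phex, an endopeptidase that restrains FGF23, measured 7.07, 6.31 and 7.32 CPM and then 48.2, 56.9 and 27.0 CPM, a log2 fold change of 2.66 ± 0.29 (SE, adjusted p = 0.00515). For Dmp1 and Phex every digit of 14 days was above every digit of 0 hours. The genes of the most mature osteocytes did not pass. Mepe measured 2.44, 2.71 and 4.13 CPM and then 1.98, 4.36 and 1.59 CPM (log2 fold change -0.20 ± 0.56 SE, adjusted p = 0.92), and Sost 3.61, 0.90 and 2.25 CPM and then 1.36, 6.22 and 0.53 CPM (0.26 ± 0.87 SE, adjusted p = 0.936), with overlapping groups for both.

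At 21 days, again 7 of 10 genes were called higher than at 0 hours in intermediate digits, beside 1.23% of 13360 genes, and the groups were apart in this direction for 8 genes, beside 11.9% of all genes. The comparison uses the same 0-hour digits as that of 14 days. Spp1 was called here and Alpl was not, which is the only difference between the sets of called genes. Runx2 measured 42.4, 23.8 and 29 CPM at 21 days (log2 fold change 1.82 ± 0.26 SE, adjusted p = 0.00875) and Sp7 15.4, 7.75 and 13.6 CPM (2.42 ± 0.42 SE, adjusted p = 0.0245). Ibsp measured 268, 134.5 and 559 CPM (2.59 ± 0.49 SE, adjusted p = 0.035). Each of these lay above all 0-hour digits.

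Spp1 reached 283, 140 and 347 CPM at 21 days (1.98 ± 0.41 SE, adjusted p = 0.0451), and Bglap 48.2, 40.0 and 34.3 CPM (3.27 ± 0.57 SE, adjusted p = 0.0245). Dmp1 measured 63.7, 25.5 and 39.6 CPM (2.35 ± 0.40 SE, adjusted p = 0.0226) and Phex 71.9, 32.8 and 31.1 CPM (2.72 ± 0.34 SE, adjusted p = 0.00558). No digit of 21 days overlapped a digit of 0 hours in these 4 genes. Alpl at 38.1, 16.97 and 57.8 CPM overlapped (1.61 ± 0.43 SE, adjusted p = 0.106). Mepe, at 9.98, 5.56 and 5.98 CPM, lay above the 0-hour digits without a call (1.24 ± 0.41 SE, adjusted p = 0.179), and Sost at 7.22, 2.007 and 4.603 CPM did not (0.99 ± 0.65 SE, adjusted p = 0.493).

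These calls changed with the fit and with single digits. With all 41 digits in 1 fit, which share an estimate of the spread with the more variable NR digits, 0 of 10 genes were called at either time, although the log2 fold changes of the genes called at 14 days ran from 1.95 (Runx2, unadjusted p = 0.00352, adjusted p = 0.338) to 3.99 (Ibsp, adjusted p = 0.355). Leaving out 1 digit lowered the count at 14 days to 1 (Runx2, without the second 0-hour digit), 3 (without the first 0-hour digit) or 4 (without the third digit of 14 days). At 21 days it fell to 0, 4, 2 or 2 without the second 0-hour, the first 0-hour, the first 21-day or the third 21-day digit, in that order. With the date period as a term in the 2-group fit, 8 genes were called at 14 days (Spp1 as well) and 4 at 21 days (Runx2, Sp7, Bglap and Phex). Within the earlier date period, the difference in mean log2(CPM + 1) from 0 hours to 14 days (2 digits in each group) was 1.81 for Runx2, 2.48 for Sp7, 3.21 for Ibsp and 3.09 for Bglap, and in the later period (1 digit in each) it was 1.89, 3.18, 4.90 and 3.63.

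At 24 hours, 0 of the 10 genes were called against 0 hours in intermediate digits, beside 0.0152% of 13172 genes. Spp1 measured 248, 125 and 132 CPM there (log2 fold change 1.39 ± 0.40 SE, adjusted p = 0.187), above all 0-hour digits, and Phex 2.57, 1.94 and 4.67 CPM (-1.11 ± 0.42 SE, adjusted p = 0.272), below all of them. The other 8 genes overlapped between the times, and 23.3% of all genes did not overlap, in either direction. Spp1 and Phex were the 2 genes with an unadjusted p under 0.05 in edgeR, beside 2034 of all 13172 genes. Of these 2, DESeq2 called Spp1, as did edgeR with the date period as a term (1.72, adjusted p = 0.0294). Pooling the 6 intermediate digits of 14 and 21 days against the 3 of 24 hours called 7 of 10 genes higher, beside 3.59% of all genes. These were Runx2 (log2 fold change 1.99), Sp7 (3.22), Alpl (2.15), Bglap (3.55), Ibsp (2.80), Dmp1 (2.0102) and Phex (3.76 ± 0.42 SE, adjusted p = 0.00101). The same 7 genes were called with the date period as a term, and 5 to 7 when 1 digit was left out. With all 41 digits in 1 fit, 0 were called (lowest adjusted p = 0.0831, Runx2). Spp1 differed by 0.39 ± 0.30 between the pooled late digits and those of 24 hours (SE, adjusted p = 0.424) and was not called.

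**Figure D2:**
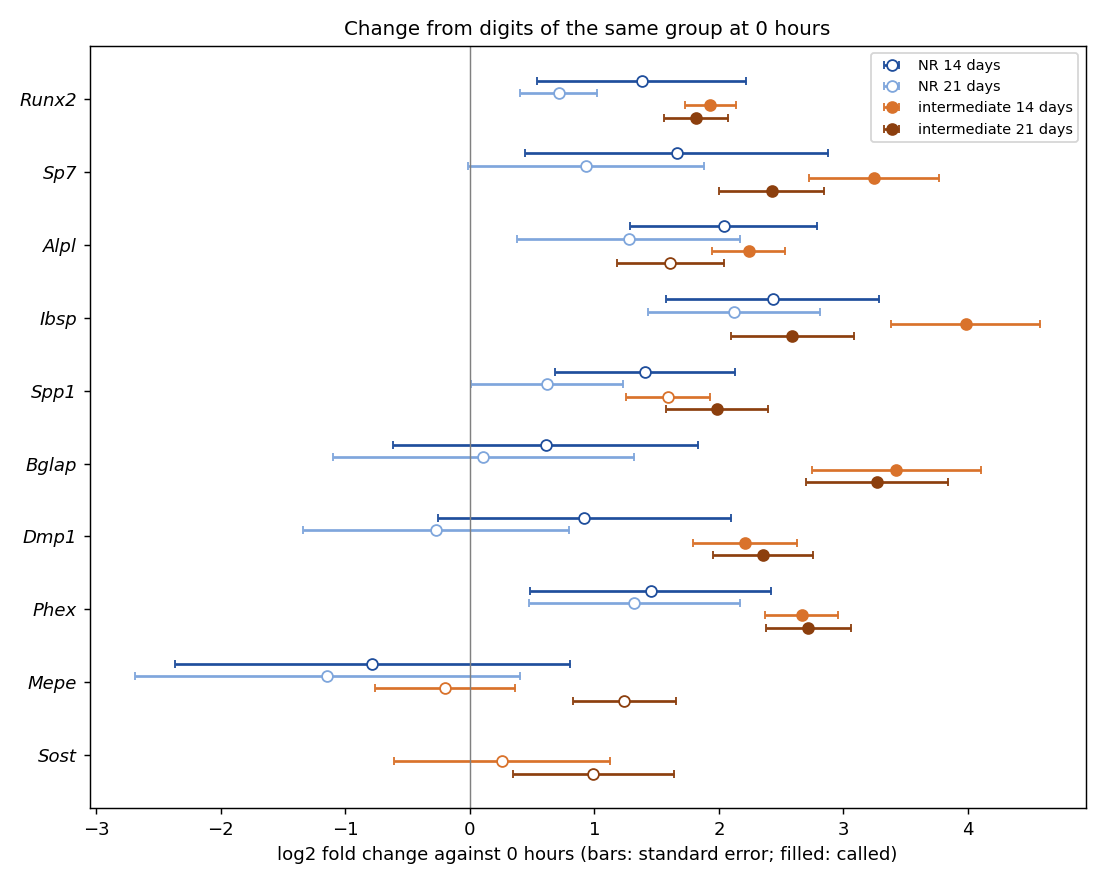
Log2 fold change of each gene at 14 and 21 days against 0 hours of the same group (x axis, with standard errors as bars) for NR digits in blue and intermediate digits in orange and brown, with filled points for called genes. The intermediate points of 7 genes at each time are filled and none of the NR points is, and Sost was not tested in NR digits.

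In NR digits the same genes did not reach a call at the late times. Against the NR digits of 0 hours, 0 of 9 tested genes were called at 14 days (0% of all genes were) and 0 of 9 at 21 days (beside 0.452% of all genes), with Sost removed by the filter both times. An unadjusted p under 0.05 in edgeR was reached by 2 genes at 14 days (Alpl and Ibsp) and 1 at 21 days (Ibsp), and DESeq2 called 0 at either time. The late NR digits were uneven. Ibsp measured 58.8, 50.3 and 36.6 CPM at 0 hours, 512, 36.5 and 248 CPM at 14 days and 438, 47.1 and 153 CPM at 21 days. Its log2 fold change was 2.43 ± 0.86 at 14 days (SE, adjusted p = 0.558) and 2.1218 ± 0.69 at 21 days (SE, adjusted p = 0.475). The first digit was high and the second at the level of 0 hours each time.

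Sp7 showed the same order, with 20.2, 0.75 and 3.34 CPM at 14 days and 10.5, 1.55 and 2.22 CPM at 21 days, against 5.64, 0.78 and 1.3 CPM at 0 hours. Bglap measured 25.1, 5.41 and 0.43 CPM at 14 days and 18.4, 0.23 and 2.75 CPM at 21 days, and its 0-hour digits, at 14.4, 2.75 and 3.03 CPM, lay within that range. Phex measured 25.2, 3.36 and 2.06 CPM at 14 days and 20.7, 1.32 and 5.76 CPM at 21 days. In each of these 4 genes the highest digit at each time was the first, the digit with the lowest labelled level of its group (63% at 14 days and 71% at 21 days). Without the second NR digit of 14 days, Runx2 (1.90, adjusted p = 0.0364) and Ibsp (2.95, adjusted p = 0.014) were called at 14 days. How many of all genes were called in that fit is not given here.

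Pooling NR digits of 14 and 21 days (6 digits) against those of 3 to 24 hours (12 digits) called 3 of 9 tested genes higher, beside 10% of all genes called higher, where the median gene moved by 0.11 (log2). Sp7 rose by 2.68 ± 0.82 (log2, SE, adjusted p = 0.0312), Ibsp by 2.26 ± 0.76 (SE, adjusted p = 0.0446) and Alpl by 1.76 ± 0.54 (SE, adjusted p = 0.0324). The late digits ran from 36.5 to 512 CPM in Ibsp and the acute digits from 0 to 185 CPM, so the groups overlapped. Spp1, Dmp1 and Mepe had log2 fold changes of -0.78, -1.17 and -1.35 and were not called. With the date period as a term, 0 of the 3 stayed called (adjusted p = 0.0717 for Sp7, 0.122 for Alpl and 0.171 for Ibsp), whereas with all 41 digits in 1 fit the count was 3, with or without the period. Leaving out 1 digit gave 0 to 3 called genes, with 0 without the first digit of 12 hours, of 24 hours, of 14 days or of 21 days, and 1 (Sp7) without the second or the third of 12 hours. Within the later period, the difference in mean log2(CPM + 1) of Ibsp was 0.53 (5 late and 2 acute digits), and within the earlier period it was 4.77, with 1 late and 10 acute digits. Marker genes of other cells were called in the same contrast, and their part in the result was not tested. Called higher were 3 of 4 osteoclast genes tested (Acp5, Ctsk and Atp6v0d2), 3 of 4 tenocyte genes (Scx, Tnmd and Fmod), 2 of 5 chondrocyte genes (Acan and Comp, with Col10a1 lower), 2 of 6 macrophage genes (Csf1r and Lyz2) and 1 of 4 endothelial genes (Tie1), and 1 of 3 neutrophil genes (Retnlg) was lower. The osteoclast sum ran from 30.2 to 387 CPM in acute and from 153 to 1001 CPM in late digits, and the tenocyte sum from 27.5 to 140 CPM and from 199 to 787.5 CPM.

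The acute NR times brought 2 calls. Osteopontin (Spp1) was higher at 12 hours, at 150, 246 and 177 CPM against 79.2, 38.3 and 29.7 CPM at 0 hours. Its groups were apart, as were those of 42.3% of all genes in either direction. Its log2 fold change was 1.99 ± 0.37 (SE, adjusted p = 0.0108), and it was the only one of 8 tested genes called, beside 6.76% of all genes called higher. The digits of 12 hours all belong to the earlier period and 2 of the 3 digits of 0 hours to the later, and with all digits and the period in 1 fit the log2 fold change was 1.34 (adjusted p = 0.546). With the period as a term in the 2-group fit it was 1.29 (adjusted p = 0.0412), and without the 2 digits that share labels 2.57 (adjusted p = 0.00564). Without the first 0-hour digit Dmp1 was called as well at 12 hours (2.74, adjusted p = 0.0297). At 24 hours Runx2 was called, at 12.5, 11.4 and 18.3 CPM against 7.46, 6.28 and 6.28 CPM (1.0837 ± 0.29 SE, adjusted p = 0.0387), 1 of 9 tested beside 5.57% of all genes called higher. Without the second or the third 0-hour digit, or without the first or the third digit of 24 hours, Runx2 lost the call, as it did with the date period as a term. Spp1 was spread from 67.2 to 515 CPM at 24 hours (2.29 ± 0.71 SE, adjusted p = 0.0611), and it was called without the first 0-hour digit (adjusted p = 0.0375) or the second digit of 24 hours (adjusted p = 0.0297).

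Beside the Spp1 result, markers of other cells moved too. Neutrophil genes were called higher at 12 hours for 3 of 3 tested (S100a8, S100a9 and Retnlg) of a list of 6, and their part in the Spp1 difference was not tested. The neutrophil list summed to 4.41 to 6.55 CPM in NR digits of 0 hours and to 106 to 308 CPM at 12 hours. The macrophage list called 1 of 6 (Cd14) and summed to 112 to 189 CPM and 239 to 386 CPM at these times, with no macrophage marker at 0 in all digits of either group, while Ly6g and Camp were at 0 in all digits of 12 hours.

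At the other NR times no gene of the 10 was called against 0 hours. At 3 hours 7 genes were tested (0% of all genes called), at 6 hours 8 (4.85% called), at 3 days 8 (0.723%) and at 7 days 9 (0.0537%). An unadjusted p under 0.05 in edgeR was reached by 0 genes at 3 and 6 hours, 1 at 3 days (Spp1) and 3 at 7 days (Runx2, Ibsp and Spp1). Among all genes it was reached by 1362 of 12562, 3368 of 13168, 1477 of 13286 and 566 of 13046, in the order of these times. Of the 10 genes, DESeq2 called 0 at 3 and 6 hours and Spp1 at 3 and 7 days. With the date period as a term edgeR called Spp1 at 3 days (1.57, adjusted p = 0.0116). Without the second digit of 3 days, Spp1 (2.75, adjusted p = 0.0221) and Ibsp (1.71, adjusted p = 0.0446) were called at 3 days. Ibsp at 7 days measured 8.004, 562, 401, 158 and 389 CPM, so that 4 of the 5 digits were above all digits of 0 hours, with a log2 fold change of 2.62 ± 0.98 (SE, adjusted p = 0.894). Runx2 at 7 days measured 13.04, 10.5, 18.5, 19.8 and 27.1 CPM, all above 0 hours (1.40 ± 0.51 SE, adjusted p = 0.842). Of all genes, 6.81% were apart between these times in either direction. Bglap was at or near 0 in 4 of the same 5 digits and at 2.83 CPM in the fifth (-3.47 ± 1.58 SE, adjusted p = 0.999). With Bglap, Bglap2 and Bglap3 (described below) summed, this value was -0.47 ± 0.49 (SE). A test over all 9 NR times called 0 of 10 genes, beside 7.62% of all genes, with the lowest adjusted p at Runx2 (0.183). Runx2 was the 1 gene with an unadjusted p under 0.05, beside 3221 of all 14434 genes. DESeq2 called 2 genes over the time course (Runx2 and Alpl), and without the second NR digit of 14 days edgeR called Runx2 (adjusted p = 0.0254).

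Intermediate and NR digits were then compared at the same time. Of the 10 genes, 0 were called at 0 hours, 24 hours (8 tested), 14 days or 21 days, beside 0%, 0%, 0% and 0.648% of all genes. An unadjusted p under 0.05 in edgeR was reached by 1 gene at 0 hours (Phex), 0 at 24 hours, 0 at 14 days and 7 at 21 days. Among all genes it was reached by 491 of 13500, 1472 of 13024, 270 of 13421 and 1927 of 13736 in the same order. DESeq2 called 0, 0, 0 and 2 of the 10 genes (Runx2 and Sost). At 0 hours 8 genes were higher and 2 lower in intermediate digits, with log2 fold changes of -0.56 to 0.91. At 14 days all 10 were higher, by 0.60 (Spp1) to 2.16 (Bglap), and the groups were apart for 3 of 10 (Runx2, Bglap and Phex), beside 4.21% of all genes. With Bglap, Bglap2 and Bglap3 summed, the difference was 0.94 ± 0.51 (SE, adjusted p = 0.862) and the groups were not apart. Within the earlier period, where the only NR digit is the one of level 63%, 6 of the 10 differences in mean log2(CPM + 1) at 14 days were below 0. Within the later period (1 intermediate and 2 NR digits) all 10 were above 0, from 0.70 (Sost) to 4.08 (Ibsp). With the date period as a term, 0 of 10 were called.

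At 21 days all 10 genes were higher in intermediate digits, by 0.56 to 3.15 on the log2 scale, and the groups were apart for 7 of 10, beside 8.73% of all genes apart in that direction. Of the 89 genes called among all genes at this time, 6 were higher and 83 lower in intermediate digits. Runx2 had the lowest adjusted p, 0.0817, at 42.4, 23.8 and 29 CPM against 14.9, 7.37 and 10.6 CPM (1.4997 ± 0.31 SE). Sost measured 7.22, 2.007 and 4.603 CPM against 1.24, 0 and 0.27 CPM, a difference of 3.15 ± 1.05 (SE, adjusted p = 0.236). Dmp1 measured 63.7, 25.5 and 39.6 CPM against 13.8, 1.71 and 1.51 CPM (2.89 ± 0.82 SE, adjusted p = 0.169), and Mepe 9.98, 5.56 and 5.98 CPM against 2.57, 0 and 0 CPM (3.04 ± 1.25 SE, adjusted p = 0.332). At this time the intermediate digits are all of the earlier and the NR digits all of the later period, so group and period cannot be told apart. Without the first NR digit of 21 days, Dmp1 was called (4.70, adjusted p = 0.0467).

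With the 4 shared times in 1 fit and time as a term, all 10 genes were again higher in intermediate digits, by 0.51 to 1.78, and 0 of 10 were called, beside 0% of all genes. Unadjusted p was under 0.05 for 6 genes, beside 874 of all 14768 genes, and lowest for Phex (0.00197, adjusted p = 0.787). Whether the change over time itself differed between the groups was tested as an interaction, which called 0 of 10 genes and 0% of all genes. The lowest adjusted p was at Runx2 (0.66), the 1 gene with an unadjusted p under 0.05, beside 1048 of all 14768 genes. DESeq2 called 0 of 10 genes in either test. The calls in intermediate digits and their absence in NR digits are therefore not shown to differ.

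**Figure D3:**
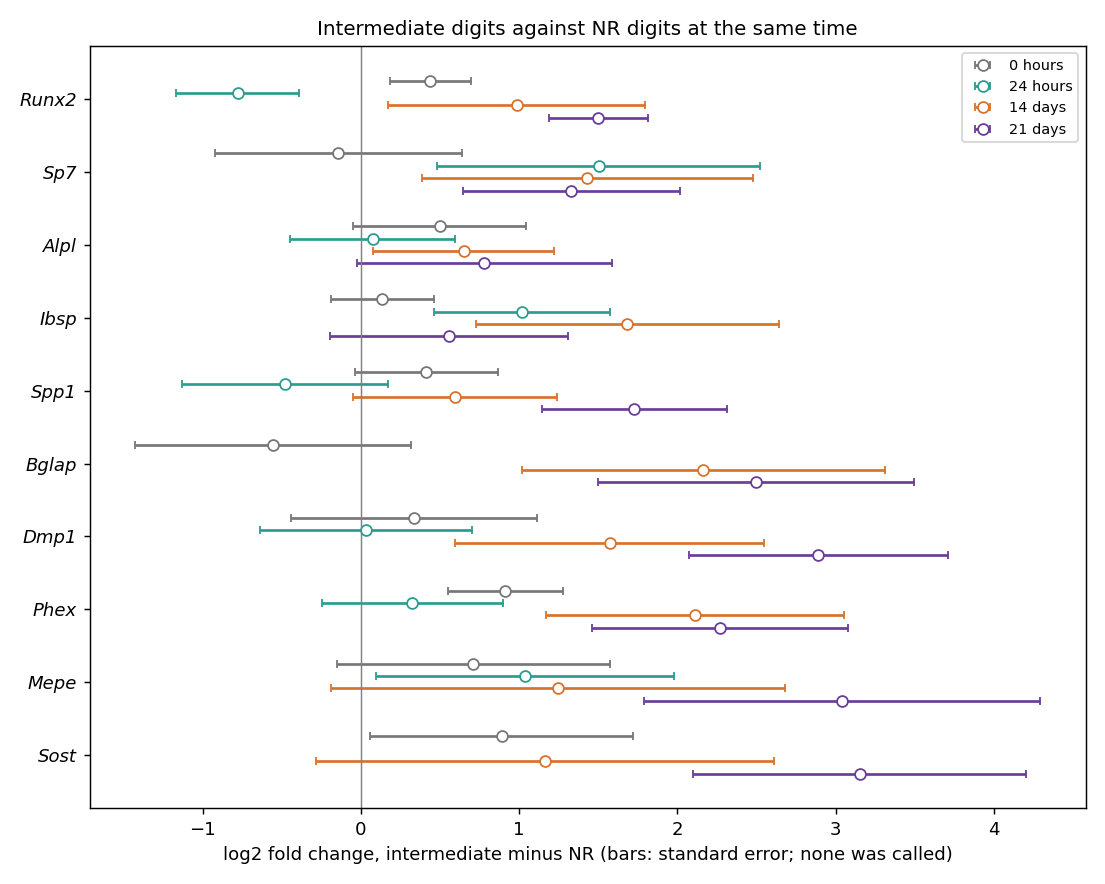
Log2 fold change of intermediate against NR digits for each gene (x axis, bars are standard errors) at 0 hours, 24 hours, 14 days and 21 days, with open points since none was called; Bglap and Sost were not tested at 24 hours. The points of 14 and 21 days lie above 0 for all 10 genes, and those of 0 hours lie between -0.56 and 0.91.

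Within the NR group the labelled level of amputation was tested with time as a term. The estimates were negative for 9 of 10 genes, meaning lower RNA with more bone removed, and 0 of 10 were called, beside 0% of all genes. Mepe changed by -2.10 ± 1.03 (log2 per 10 percentage points of level, SE, unadjusted p = 0.0512) and Dmp1 by -1.24 ± 0.64 (SE, unadjusted p = 0.0622), both with an adjusted p of 0.999. In edgeR 0 of the 10 genes had an unadjusted p under 0.05, beside 236 of all 14434 genes, and DESeq2 called 0 of the 10.

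Bglap, Bglap2 and Bglap3 are 3 neighbouring genes of similar coding sequence, called copies here. The counts of the Bglap row, the osteocalcin gene followed, are uncertain for that reason. The coding sequences, of 285 bases each in GENCODE M21, differ at 4 positions between Bglap and Bglap2 (98.6% identity), at 13 between Bglap and Bglap3 and at 9 between Bglap2 and Bglap3. Of the windows of 65 bases, the read length, in the Bglap transcript, 92.6% matched another copy with at most 2 mismatches, as did all windows of Bglap2 and 31.3% of those of the Bglap3 transcript examined. A stretch of the coding part (coding bases 184 to 273) is shown because it holds positions that tell the copies apart, with capitals at the 7 positions where the copies are not all alike, at chr3:88383650-88383739 for Bglap, chr3:88377885-88377974 for Bglap2 and chr3:88368771-88368860 for Bglap3, all on the minus strand of GRCm38.
Bglap: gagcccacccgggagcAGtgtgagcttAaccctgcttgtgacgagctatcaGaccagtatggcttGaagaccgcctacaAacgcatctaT
Bglap2: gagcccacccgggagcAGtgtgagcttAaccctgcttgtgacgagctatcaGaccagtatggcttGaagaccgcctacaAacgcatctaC
Bglap3: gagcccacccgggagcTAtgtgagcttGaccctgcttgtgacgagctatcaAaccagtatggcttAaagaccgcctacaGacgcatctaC

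The rows of the 3 copies behaved differently. Bglap2 was at 0 in all 3 intermediate digits of 24 hours and measured 15.5, 11.9 and 24.6 CPM at 14 days and 9.58, 10.03 and 18.6 CPM at 21 days. Bglap3 stayed between 12.9 and 42.7 CPM in every intermediate digit, with 22.8, 12.9 and 28.9 CPM at 0 hours and 30.8, 28.96 and 32.6 CPM at 14 days. With the 3 copies summed, the intermediate digits still differed from 0 hours, by 1.70 ± 0.30 at 14 days (log2, SE, adjusted p = 0.0307) and by 1.58 ± 0.28 at 21 days (SE, adjusted p = 0.0244). These differences are smaller than the 3.42 and 3.27 of the Bglap row alone, and the sum includes the Bglap3 row.

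**Figure D4:**
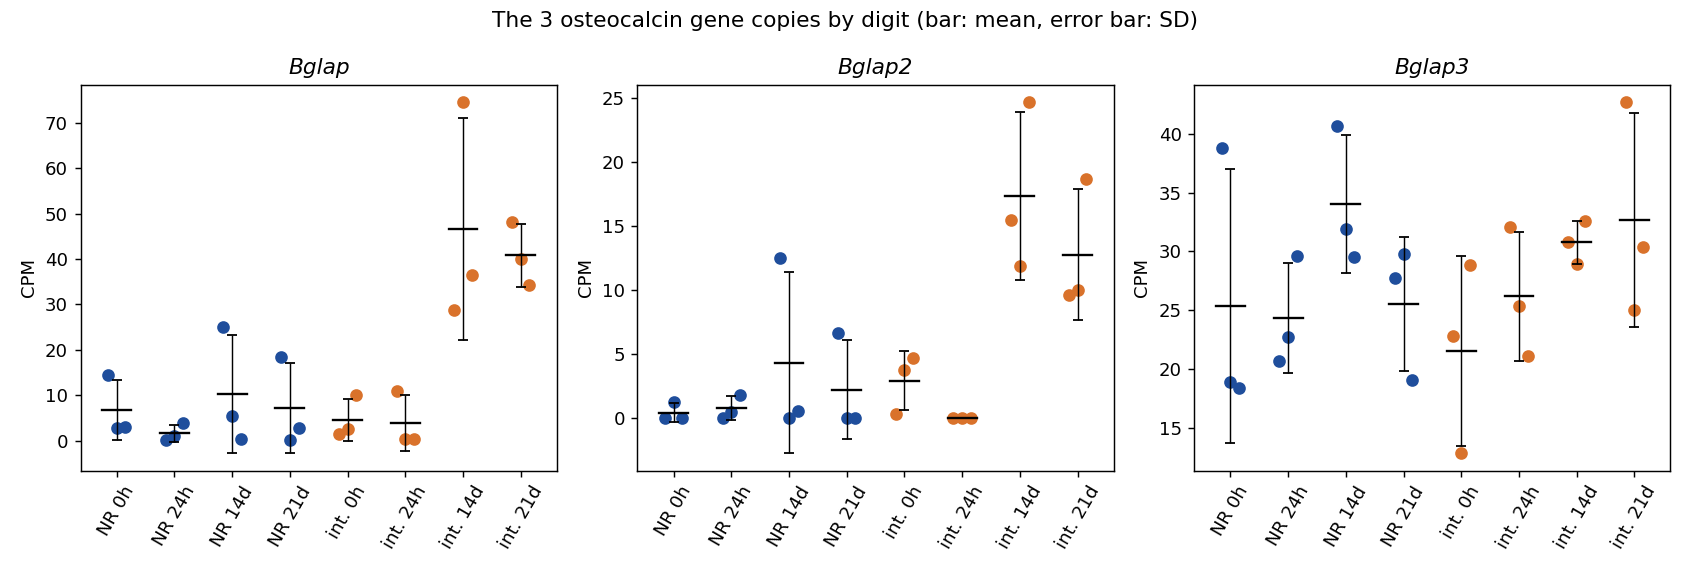
CPM of Bglap, Bglap2 and Bglap3 (y axes, each with its own scale) in every digit of the 4 times that both groups share, with the mean and SD of each group. Bglap and Bglap2 are high in intermediate digits of 14 and 21 days, and Bglap3 lies between 12.9 and 42.7 CPM in all intermediate digits.

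Other genes of bone were taken from a list of 37 (regulators, matrix, mineralisation and bone signalling). At 14 days in intermediate digits 10 of 34 tested were called higher and none lower, and at 21 days 8 of 33 higher and none lower, beside the 1.49% and 1.23% of all genes given above. Col1a1, a type I collagen gene, had the largest rise among them, by 4.07 ± 0.47 (log2, SE, adjusted p = 0.00652) at 14 days and 3.63 ± 0.48 (SE, adjusted p = 0.00635) at 21 days, and Col1a2, the other, rose by 3.48 and 3.20. Col24a1, a fibrillar collagen of bone, rose by 3.78 and 3.53, Tnn (tenascin W) by 2.69 and Omd (osteomodulin) by 2.64 at 21 days. Of the 6 mineralisation genes 0 were called at 14 days and 1 (Enpp1) at 21 days.

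In NR digits of 21 days, where none of the 10 genes was called, 5 of 33 of these other bone genes were called higher. They were Col1a1, Col1a2, Sparc, Tnn and Col24a1, beside 0.452% of all genes called in either direction. All 4 tenocyte genes tested were also higher and apart there with 0 called, beside 13.2% of all genes apart in either direction. Their part in these calls was not tested. Alternative fits were examined for the 10 genes only, so how calls in this list depend on the fit is not known. Late against acute NR digits had 14 higher and 2 lower of 33, beside 10% and 2.67% of all genes. The collagens again led, Col1a1 by 4.69 ± 0.48 (log2, SE, adjusted p = 1.47e-06), Col24a1 by 4.59, Col1a2 by 3.97 and Tnn by 3.48. The same contrast in intermediate digits had 14 higher and 1 lower of 35, beside 3.59% and 1.69%, with Omd at 4.50, Col1a1 at 4.24 and Col24a1 at 4.20. At 12 and 24 hours in NR digits the calls ran mostly the other way, with 1 higher and 5 lower of 32 at 12 hours, beside 6.76% and 4.64% of all genes, and 2 higher and 6 lower of 32 at 24 hours, beside 5.57% and 5.14%. Col1a1 fell at both times.

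The 8 genes whose levels followed the mean z-score of the 10 genes most closely over the 41 digits were Slc8a3 (Pearson r = 0.79), Col11a2 (0.76), Bglap2 (0.76), Omd (0.74), Wif1 (0.73), Fibin (0.73), Smoc2 (0.71) and Daam2 (0.70), of 13742 genes with a mean of at least 1 CPM. These coefficients describe digits that share groups, times and libraries. Bglap2 shares reads with Bglap.

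Markers of other cell types moved at the same times as the 10 genes, and their part in the results was not tested. Of 8 osteoclast genes (bone-resorbing cells), 2 of 4 tested were called higher at 14 days in intermediate digits (Ctsk and Atp6v0d2) and 3 of 5 at 21 days (Acp5, Ctsk and Mmp9), and their summed level ran from 40.1 to 99.6 CPM at 0 hours, 369 to 555 CPM at 14 days and 225 to 390 CPM at 21 days. Calcr was at 0 in all intermediate digits of 0 hours and 21 days, and Oscar in those of 0 hours. In NR digits the sum ran from 26.9 to 66.8 CPM at 0 hours, 522 to 1001 CPM at 14 days and 153 to 313 CPM at 21 days. The lowest and the highest NR sum of 14 days were each above those of the intermediate digits, but the ranges overlapped. Between the groups at 14 days 0 of 5 osteoclast genes tested were called and 0 were apart. Against 0 hours in NR digits, 0 of 4 were called at 14 days, beside 0% of all genes. All 4 were apart and higher there, beside 17.7% of all genes apart in either direction. At 21 days 1 of 4 (Ctsk) was called, beside 0.452% of all genes.

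Of 8 chondrocyte genes 2 of 6 tested were called higher at 14 days (Acan and Matn3) and 0 of 5 at 21 days, with sums of 170 to 353 CPM at 0 hours, 266 to 455 CPM at 14 days and 184 to 2031 CPM at 21 days, with Matn1 at 0 in all digits of these 3 groups and Matn3 in those of 0 hours. Of 4 tenocyte genes 1 was called at 14 days (Fmod) and 2 at 21 days (Mkx and Fmod), with sums of 95.7 to 113 CPM, 214 to 581 CPM and 227 to 648 CPM. None of the keratinocyte (6 tested), endothelial (4), macrophage (6), neutrophil and skeletal muscle genes was called at 14 or 21 days in intermediate digits. Of the 6 neutrophil genes only 2 were tested at 14 days and 1 at 21 days. Of the 6 skeletal muscle genes 1 and 2 were tested at these times, so both lists were mostly untested. The keratinocyte sum ran from 33800 to 56490 CPM at 0 hours, 29300 to 45420 CPM at 14 days and 32210 to 34500 CPM at 21 days, and the neutrophil sum at 14 days from 5.56 to 584 CPM.

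**Figure D5:**
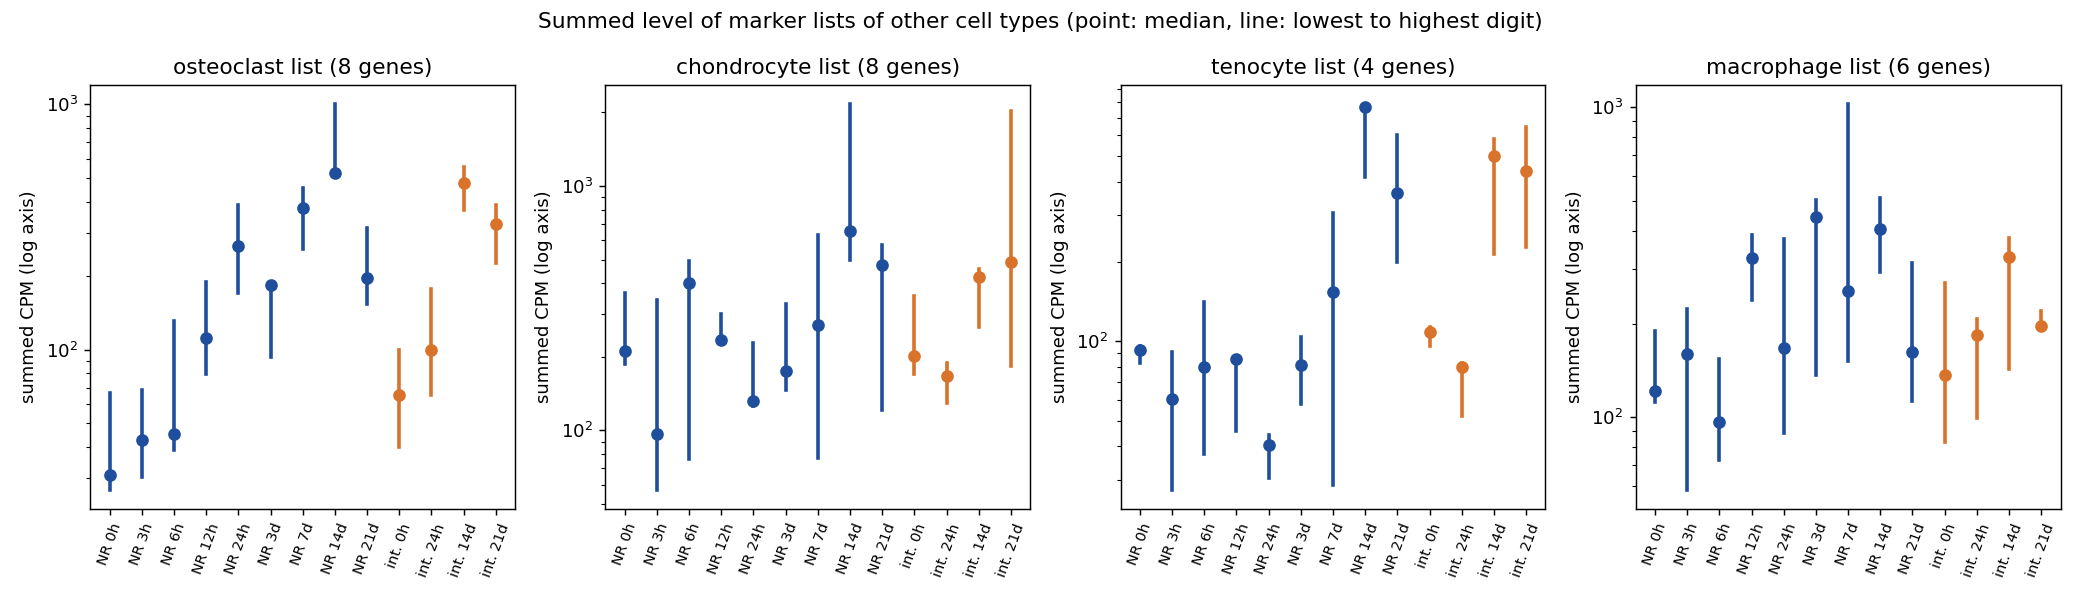
Summed CPM (log axis) of the osteoclast, chondrocyte, tenocyte and macrophage lists in each group and time, with points at the median and lines from the lowest to the highest digit. The osteoclast sum of both groups is higher at 14 days, at 369 to 555 CPM in intermediate and 522 to 1001 CPM in NR digits, than at 0 hours.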

How the data were processed

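RNA of digit tips was converted to single-end LM-Seq libraries after poly A selection and sequenced to 65 bases. Base calls came from CASAVA. The authors aligned reads to the Ensembl v75 transcripts of mm10 with Bowtie (at most 2 mismatches) and deposited RSEM 1.2.3 expected counts per gene, and they also deposited normalized TPM values scaled by median ratios, here treated as signal, which sum to 795701 to 3362790 per library. Gene names that had turned into dates (26) were restored.

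Expected counts were rounded and tested with edgeR 4.0.16 (filterByExpr, TMM, quasi-likelihood test) in R 4.3.3, fitted on the groups compared and adjusted by Benjamini-Hochberg over all genes tested. A call needed an adjusted p under 0.05 and more than 2-fold of mean normalised count plus 1; the tests of time course, interaction and level used the adjusted p alone. The study's EBSeq was not used here, and its fold rule was kept. Totals per digit ran from 1468749 to 13011782, and intervals and floors cover counting error only. Scripts were tested on simulated data.

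Groups, times, levels and date periods come from the labels, and replicate numbers only name digits. Labels do not show every digit to be from a separate mouse, so p-values measure the spread between digits. All comparisons with 0 hours in a group share its 0-hour digits. The 10 genes and all lists were chosen with earlier results of these data known. Named were the 10 genes, Bglap2 and Bglap3, called bone genes (at most 4 by fold) and the 8 genes most like the mean z-score. Alternatives were RLE scaling, no filter, DESeq2 1.42.0, no fold threshold, 1 fit of all digits with or without date period, leaving out each digit (2-group and late against acute comparisons) and leaving out digits with shared labels.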

Additional observations from a re-analysis of the deposited data

Results flagged for a closer look

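Among the 5 NR digits of 7 days, 1 digit stood far from the other 4 in 3 of the 9 genes examined by Dixon's criterion, which chance meets in about 1 of 20 groups of continuous values. That rate does not hold for Bglap and Mepe, whose other digits lay at or near 0. Bglap measured 2.833 CPM in the fifth digit and 0 to 0.1354 CPM in the others. Spp1 measured 560.8 CPM in the fourth digit against 111.5 to 193.6 CPM, and Mepe 3.008 CPM in the same digit against 0 in the others.

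In the cultured bone marrow-derived macrophages, which enter no comparison above, some of the 10 genes had counts over the floor, given as median CPM of each library's own total. Spp1 measured 1082 CPM in M0, 762 CPM in M1 and 2069 CPM in M2 cultures. Runx2 measured 19.11, 7.741 and 18.09 CPM in M0, M1 and M2, and Alpl 11.94, 1.108 and 15.24 CPM. Sp7 measured 3.3 CPM in M0 and 6.383 CPM in M2, and Ibsp 1.813 CPM in M0 and 6.733 CPM in M2.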

How the results depend on the processing

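Counts of the 10 genes called changed with the fit and with single digits. The share of all genes called in each alternative fit is not given here. With all digits in 1 fit, with or without the date period, 0 genes were called at 12 hours and 24 hours in NR digits and 0 at 14 and 21 days and for late against acute intermediate digits, and the date period as a term left 0 for late against acute NR digits. The shared estimate of spread covers 41 digits in place of 6 or 9, and the cause of these changes was not tested. With the date period as a term in the 2-group fits, 0 genes were called at 24 hours and 1 (Spp1) at 3 days in NR digits, and 1 (Spp1) at 24 hours and 4 at 21 days in intermediate digits. Without the filter 2 genes were called at 24 hours in NR digits. DESeq2 called 1 gene (Spp1) at 3 days and at 7 days in NR digits and 1 (Spp1) at 24 hours in intermediate digits, 2 (Runx2 and Sost) between groups at 21 days and 2 (Runx2 and Alpl) over the NR time course. Leaving out 1 digit gave 1 to 2 called genes at 12 hours, 0 to 2 at 24 hours, 0 to 2 at 3 days and 0 to 2 at 14 days in NR digits, 1 to 7 at 14 days and 0 to 7 at 21 days in intermediate digits, 0 to 1 between groups at 21 days, and for late against acute 0 to 3 in NR and 5 to 7 in intermediate digits. Over the NR time course only the second digits of 14 days and 6 hours were left out, with 0 to 1 called. In the other comparisons of more than 2 groups, leaving out each digit was not run. Over 26 called pairs of gene and comparison, 288 of 409 alternative values kept direction and call, 121 kept the direction and lost the call, and 0 reversed. Chosen after seeing the data were the date period in 2-group fits, the single fit and each left-out digit for late against acute, and leaving out digits with shared labels or the NR digit of 6 hours with 0 Ibsp counts. No paired analysis was possible because replicate numbers were given in accession order and pair no digits, while label dates shared between groups entered as the date period. Levels under 3 counts, frequent for Sost and Mepe, limit what depth can show.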

Other observations

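In NR digits, the digit with the lowest labelled level of its time, in which least bone was removed, was highest for most of the 10 genes at some times and for none at others. Each count rests on 1 digit per time, and the share over all genes was not computed. The digit of the lowest level was highest for 9 of 10 genes at 6 hours (level 60%), at 14 days (63%) and at 21 days (71%) and for 7 of 10 at 3 days (68%). At 3 days the other levels were 69% and 70%, and at 14 days this digit was the only NR digit of the earlier period. The digit of the lowest level was highest for 0 of 10 genes at 3 hours, 24 hours and 7 days. In intermediate digits it was highest for 2, 5, 4 and 7 of 10 genes at 0 hours, 24 hours, 14 days and 21 days. At 0 and 12 hours in NR digits the lowest level was shared by more than 1 digit.

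At 6 hours the first NR digit stood above the others in Dmp1, Phex and Mepe, but not in Sost. Dmp1 measured 126.2 CPM there against 2.109 and 8.884 CPM. Phex measured 27.45 CPM against 0.1918 and 6.585 CPM, and Mepe 12.22 CPM against 0 and 1.045 CPM. Sost ran from 0 to 1.568 CPM in the 3 digits, with a median of 1.316 CPM. The third NR digit of 3 hours, the shallowest library, had Bglap at 45.85 CPM against 0.9128 and 1.909 CPM and Spp1 at 268.2 CPM against 16.8 and 30.16 CPM, while its Runx2 was the lowest of the 3 at 0.6281 CPM.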
